A study of Rattus norvegicus with 17 samples.

Results

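In rat cortical cultures carrying α-synuclein A53T, messenger RNA was compared between 2.0 µM and 0.2 µM FK506, over all 11247 genes of the deposited table. The comparison takes 6 of the 17 libraries of the series, 3 at each dose, chosen by the genotype and treatment that the labels give. The series' design text calls 2.0 µM saturating and 0.2 µM sub-saturating, and says that primary neuronal cultures were infected with a control or with the A53T variant. The labels give the cells as primary glutamatergic neurons and astrocytes of the cerebral cortex. Besides A53T at 2.0 µM and at 0.2 µM, values are given for A53T in the vehicle DMSO (2 libraries) and for empty vector at 2.0 µM, at 0.2 µM and in DMSO (3 libraries each). Both groups of the comparison carry A53T and FK506, so neither is an untreated control. The promoter, the species of the α-synuclein sequence, the time of exposure and whether libraries came from separate cultures are not stated.

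FK506 (tacrolimus) binds the small immunophilin FKBP12, and the complex blocks calcineurin, a phosphatase switched on by calcium and calmodulin. In neurons calcineurin removes phosphates from the NFAT transcription factors, which then enter the nucleus, and from a group of endocytic proteins, the dephosphins, that recycle synaptic vesicles. A53T is a substitution in α-synuclein, a presynaptic protein, and is found in inherited Parkinson's disease. Reactive astrocytes use calcineurin and NFAT as well, among other routes.

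Normalized totals were 16390322 to 18335540 at 2.0 µM, 15091428 to 15154268 at 0.2 µM and 15144883 to 17085646 in the 11 libraries of the other groups. For pairs of the 3 A53T libraries at 0.2 µM, the median squared difference was 0.995 to 1.05 times that of counting noise. It was taken over genes with a mean between 10 and 3000. This ratio treats the normalized values as if they were counts, since depth is not known for every library and the normalization is not stated. At 2.0 µM the ratio of squared differences was 3.20 to 14.5 for pairs of A53T libraries, and at least 1.48 for pairs of the other groups. The 3 libraries at 0.2 µM therefore counted as 1 sample, by their mean, and no spread between cultures is known for that dose. The test of each gene (limma on log2 of value + 1, a mean for each of the 6 groups, 15 samples) lets this lone sample vary like the other groups' samples. The p-values measure the spread between these libraries, which may be technical.

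The A53T libraries at 0.2 µM also stood apart from the rest of the series. They were above all 14 other libraries for 3912 genes and below all of them for 3648, together 67.2% of genes. The same share was 9.62% for A53T at 2.0 µM, 13.8% for vector in DMSO and 0.694% for vector at 0.2 µM. These shares are not like for like, since libraries that agree within counting noise clear the others more easily than libraries with spread. Libraries of the 4 groups outside the comparison differed within their groups along a leading axis that held 50.4% of the within-group variance. On that axis the A53T libraries at 2.0 µM scored -0.47 to -0.01 and those at 0.2 µM 1.11 to 1.12, against -0.22 to 0.35 in the 11 libraries of the other groups. Replicate 1 was the lowest of the 2.0 µM libraries, at -0.47. Dose and position on this axis cannot be told apart in A53T cultures, so the counts of each list, and the values of some genes, are given with the axis score as a covariate too. That second fit carries a slope learned between -0.47 and 0.35 out to 1.12, and is an extrapolation. The axis was drawn from the within-group spread of 11 libraries that are also in this fit, so the p-values may be too small.

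**Figure D1:**
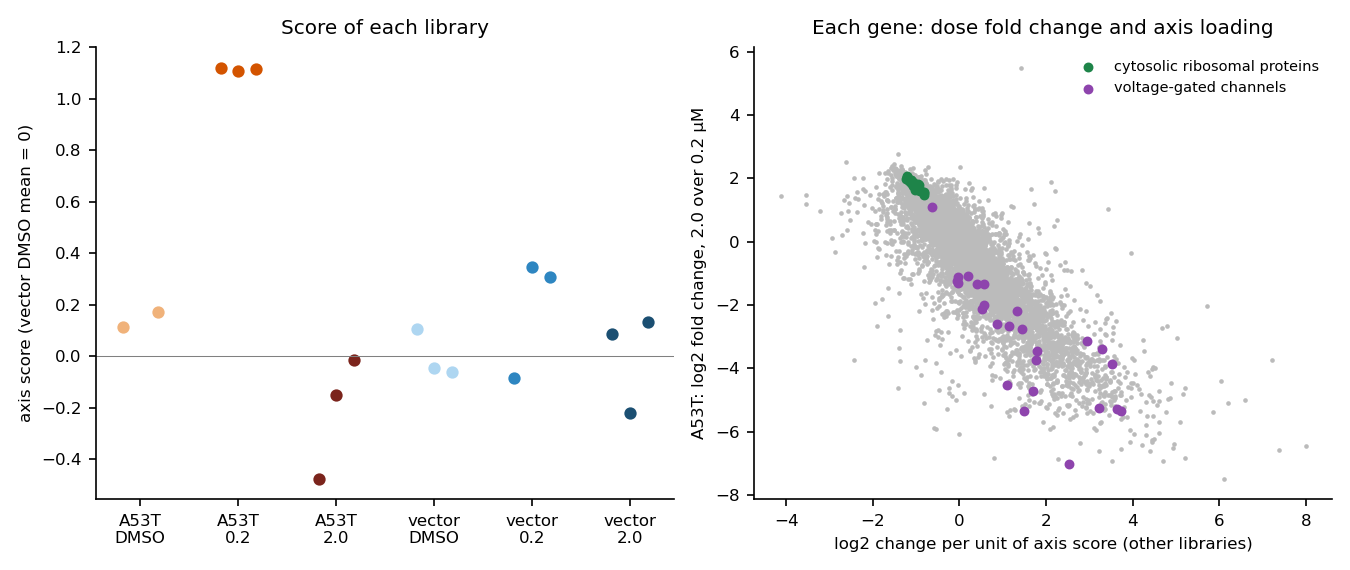
Left, the score of each of the 17 libraries on the leading axis of variation within the other groups (vector DMSO mean at 0; FK506 in µM). The A53T libraries at 0.2 µM lie at 1.11 to 1.12 and all others at 0.35 or below. Right, each of 11247 genes by its log2 change per unit of axis score and its log2 fold change between doses in A53T, with ribosomal protein genes in green and voltage-gated channel genes in purple.

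Between the doses 4358 genes rose and 4334 fell at 2.0 µM relative to 0.2 µM (adjusted p under 0.05), which is 77.3% of those tested, 38.7% higher and 38.5% lower. The 3 libraries of each dose did not overlap for 87.1% of genes, 43.9% higher and 43.2% lower. Those at 0.2 µM act nearly as 1 sample, so a lack of overlap is easier to reach than for 3 samples against 3. The median log2 fold change of all genes was 0.02. The tails were unequal: 801 genes were more than 3 log2 units lower at 2.0 µM, and 1 gene was more than 3 higher. That gene, Ttr, a carrier of thyroid hormone, had values of 73.7, 17 and 68.5 at 2.0 µM and was listed at 0 in all 3 libraries at 0.2 µM, so no fold is given. The 1st percentile of the fold changes was -4.98 and the 99th was 1.99. In vector cultures the same doses gave 2021 genes higher and 1764 lower (15.7%), together 33.7%, and the standard deviation of the fold changes across genes was 0.46, against 1.51 in A53T. Across genes the A53T fold change had a Pearson correlation of -0.86 with the axis loading and of 0.43 with the vector fold change. The axis was built without the libraries of the comparison, the vector groups lent it their spread, and genes are not independent replicates. With the axis score as a covariate 238 genes were higher (2.12%) and 663 lower (5.89%), together 8.01%.

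**Figure D2:**
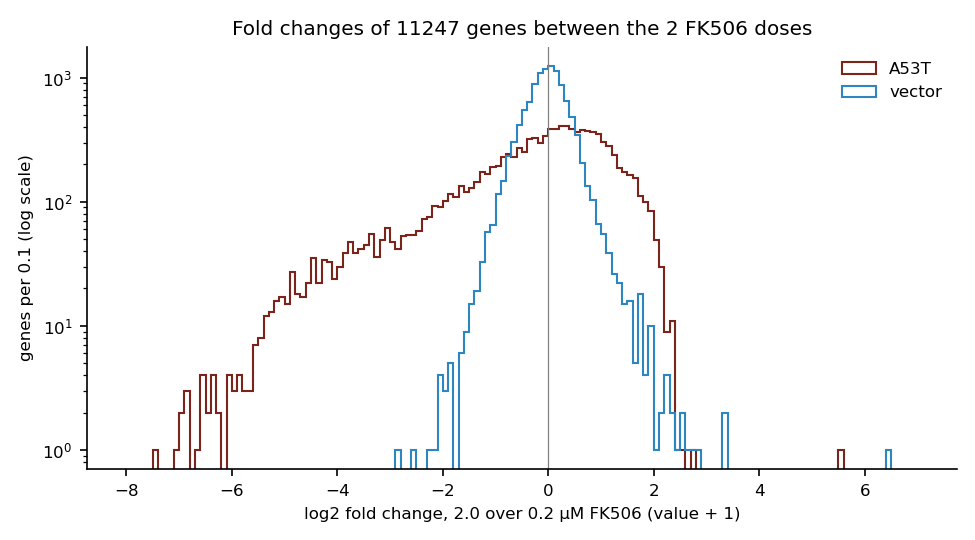
Number of genes (log scale) in steps of 0.1 of the log2 fold change of 2.0 over 0.2 µM FK506, for A53T (dark red) and vector (blue) cultures. The A53T distribution reaches much further to the left, with a 1st percentile of -4.98, and the bar at its far right is Ttr, listed at 0 in the A53T libraries at 0.2 µM.

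The calcineurin genes themselves were lower at the higher dose in 3 of 4 cases, beside 38.5% of all genes. Ppp3ca, which encodes the main catalytic subunit in brain, had 1009, 1543 and 1512 at 2.0 µM and 4258, 4269 and 4305 at 0.2 µM, a log2 fold change of -1.68 ± 0.23 (SE, adjusted p = 3.42e-05). The A53T libraries in DMSO had 2106 and 2325, between the 2 doses. Ppp3cb, the second catalytic subunit, fell by 1.42, and the regulatory subunit Ppp3r1, which binds calcium, fell by 0.48. Ppp3cc did not pass (0.09, adjusted p = 0.340). In vector cultures Ppp3ca also fell, by 0.72, to 1239 to 1715 at 2.0 µM, against 2069 to 2780 at 0.2 µM. The Ppp3ca difference was larger in A53T than in vector by the interaction test (-0.97, adjusted p = 0.00955). None of the 4 passed with the axis score as a covariate, where Ppp3ca was at -0.14.

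All 4 measured NFAT genes fell, beside 38.5% of all genes, and the median log2 fold change of the 4 was -1.61. Nfat5, the member that answers to osmotic stress and lacks the calcineurin docking of its relatives, had 413, 567 and 532 at 2.0 µM and 1801, 1811 and 1846 at 0.2 µM (-1.86 ± 0.15). Its 9 vector libraries lay between 507 and 584, and no difference between the doses passed there. Nfatc2, one of the NFAT genes that calcineurin acts on, had 11.9, 26 and 20.2 at 2.0 µM and 107, 98.3 and 116 at 0.2 µM (-2.47 ± 0.41). The A53T libraries in DMSO had 109 and 92.5, close to those at 0.2 µM, and in vector it fell too, by 1.19. Nfatc3 fell in A53T (-0.91) and rose in vector (0.42). All 4 passed the interaction test as lower in A53T, and Nfat5 alone of them passed with the covariate (-1.43, adjusted p = 0.00168).

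Among 7 calcineurin regulators 3 rose and 3 fell, beside 38.7% and 38.5% of all genes. Rcan1, an inhibitor of calcineurin that NFAT induces in many tissues, had 1687, 1478 and 1519 at 2.0 µM and 1314, 1338 and 1329 at 0.2 µM (0.23 ± 0.09, adjusted p = 0.0325), and this call was lost without replicate 1 at 2.0 µM (adjusted p = 0.0729). It was highest in DMSO, at 1825 and 1740. Akap5, the anchor that holds calcineurin at the postsynaptic membrane, showed the largest difference of the list, with 29.7, 35 and 30.8 against 500, 490 and 467 (-3.89 ± 0.44). Cib1, a calcium-binding protein, rose to 549, 410 and 457, against 133, 129 and 131 at 0.2 µM. Cabin1, a nuclear inhibitor of calcineurin, fell in A53T (-0.61) and in vector (-0.29). None of the 7 passed with the covariate, where Akap5 was at -1.72 (adjusted p = 0.107).

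The genes of the FK506-binding immunophilins moved the other way. Of 12 measured, 9 rose and none fell, with a median of 0.74, while in vector 4 rose and 1 fell with a median of 0.01. Fkbp1a, which encodes FKBP12, had 15043, 12577 and 12496 at 2.0 µM and 7033, 7092 and 7076 at 0.2 µM (0.91 ± 0.13, adjusted p = 3.62e-05). The A53T libraries in DMSO had 12668 and 12716 and the 9 vector libraries 10988 to 14797, so the 2.0 µM libraries lay at the level of the other groups and the 0.2 µM libraries below every one of them. Fkbp2, an immunophilin of the endoplasmic reticulum, rose by 2.06 and Fkbp8, of the mitochondrial membrane, by 1.15. Fkbp5, an immunophilin that glucocorticoids induce and that binds Hsp90, did not pass (0.12, adjusted p = 0.167). No member passed with the covariate.

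Sncb, the β-synuclein gene, had 14712, 12848 and 11117 at 2.0 µM and 6335, 6422 and 6351 at 0.2 µM (1.01 ± 0.15), with 15890 and 15498 in DMSO. It did not pass in vector, where the 9 libraries had 12579 to 19381, all above the A53T libraries at 0.2 µM. It did not pass with the covariate (0.05, adjusted p = 0.801).

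**Figure D3:**
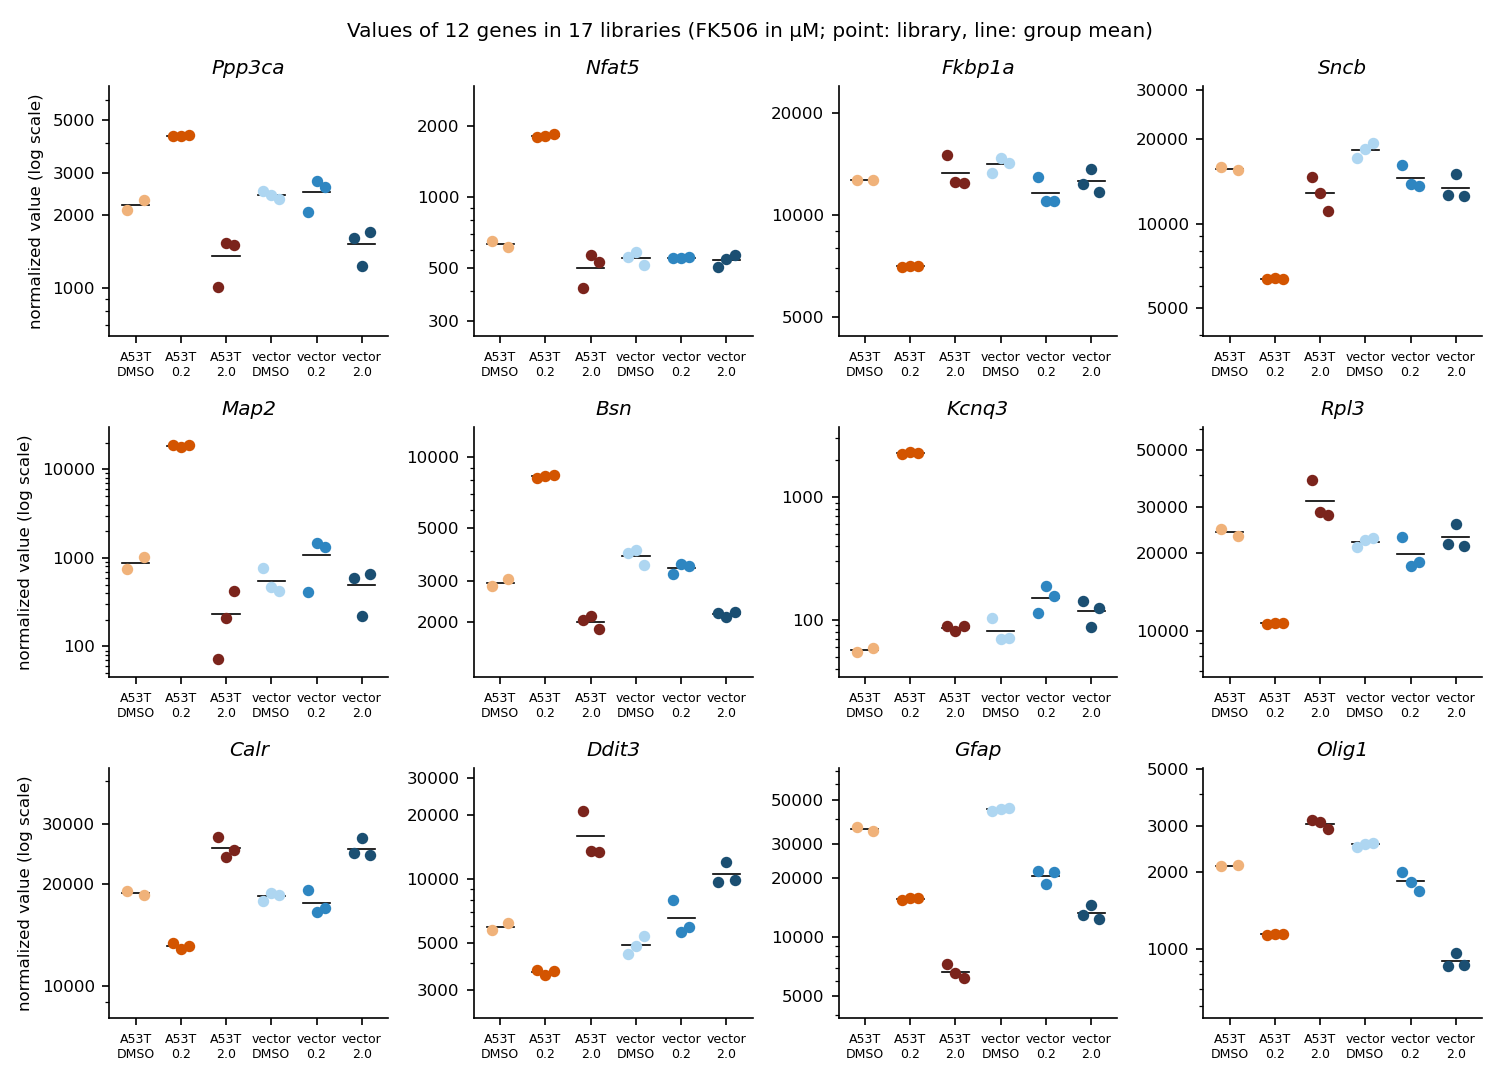
Normalized values (log scale) of 12 genes in the 17 libraries, by genotype and FK506 dose in µM; each point is a library and the line is the group mean. For every gene shown except Gfap and Olig1 the A53T libraries at 0.2 µM lie outside the range of all others. Gfap falls with each dose in both genotypes, and Olig1 goes in opposite directions between the doses.

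Genes of neuronal excitability had the lowest median of the lists with more than 3 members. Of 25 measured genes of voltage-gated calcium, sodium and potassium channels, 24 were lower at 2.0 µM and 1 was higher, with a median log2 fold change of -2.76, beside 0.02 over all genes. In vector 10 were lower and none higher, with a median of -0.56. Kcnq3, a subunit of the M-current that dampens firing, had 89.6, 81 and 89 at 2.0 µM and 2240, 2323 and 2272 at 0.2 µM (-4.70 ± 0.30). Its A53T DMSO libraries had 54.4 and 58.6 and its vector libraries 70.4 to 187, so the 0.2 µM libraries alone were high. Cacna1e, the R-type calcium channel, had 92.2, 65 and 106 at 2.0 µM and 3568, 3448 and 3687 at 0.2 µM (-5.36 ± 0.35). Kcna2, a delayed rectifier of axons, had 4.22, 3 and 7.5 at 2.0 µM and 762, 692 and 712 at 0.2 µM, which was the second largest fall among named genes (-7.01). Kcnc1, a potassium channel of fast-spiking neurons, had 133, 156 and 137 at 2.0 µM, 591, 665 and 613 at 0.2 µM, and 253 and 269 in DMSO. In vector it also fell, to 155 to 183 at 2.0 µM, against 263 to 314 at 0.2 µM. With the covariate 14 of the 25 channel genes passed as lower and none as higher, the largest number for any list, and Cacna1c (-1.47), Cacna1e (-4.03), Kcnc1 (-1.58) and Kcnq3 (-3.29) were among them. In bulk RNA, fewer cells of a type and less RNA per cell cannot be told apart.

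Receptor genes for glutamate and GABA fell in 26 of 30 cases and rose in 1, with a median of -1.80 in A53T and -0.62 in vector. With the covariate 5 passed as lower and none as higher, with a median of -0.21. Grin2b, an NMDA receptor subunit, had 267, 228 and 264 at 2.0 µM and 1485, 1563 and 1519 at 0.2 µM (-2.59 ± 0.16), while its vector libraries lay between 140 and 272 at every dose. Gria2, the AMPA receptor subunit that keeps calcium out, fell by 1.64 and by 0.42 in vector. Gabrb1, a GABA-A receptor subunit, fell in A53T (-1.95) and rose in vector (0.78). Grm5, a metabotropic glutamate receptor, had 39.9, 63 and 73.2 at 2.0 µM and 2480, 2414 and 2544 at 0.2 µM.

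Of 24 genes of the postsynaptic scaffold, 22 fell and 1 rose, with a median of -2.23, and 7 passed as lower with the covariate. Homer1, a scaffold that links glutamate receptors to calcium stores, had 496, 584 and 534 at 2.0 µM, 1437, 1457 and 1431 at 0.2 µM, and 821 and 858 in DMSO (-1.42 ± 0.11), and it passed with the covariate as well (-1.18). Dlgap1, another scaffold, had 2087, 2239 and 1931 at 2.0 µM and 4191, 4158 and 4132 at 0.2 µM. It fell by 0.66 in vector, and with the covariate the A53T difference was -0.99. Camk2a, a kinase of the postsynaptic density, fell by 3.84 but was at 0.43 with the covariate. Its 3 libraries at 2.0 µM ran from 147 to 563, and the lowest was replicate 1.

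Presynaptic genes were more mixed, with 18 of 25 lower, 4 higher and a median of -1.18, and with the covariate 4 were lower and 1 higher. Bsn, which encodes the active zone organizer bassoon, had 2040, 2118 and 1872 at 2.0 µM and 8195, 8364 and 8407 at 0.2 µM (-2.05 ± 0.10, adjusted p = 1.20e-07). It fell in vector too, by 0.65, and stayed at -1.88 with the covariate. Pclo, its relative piccolo, fell by 5.42. Sv2b, a vesicle protein, fell by 1.32 in A53T and 0.75 in vector. Of 13 dephosphins and their partners in vesicle endocytosis, 9 fell and 3 rose, and 3 fell in vector, while with the covariate 1 was lower and 1 higher. Synj1, the phosphatase synaptojanin that calcineurin dephosphorylates, had 451, 1007 and 1168 at 2.0 µM and 8264, 8132 and 8142 at 0.2 µM, with 1651 and 1774 in DMSO. Its difference was not seen with the covariate (-0.05). Pip5k1c, a lipid kinase and another dephosphin, fell by 0.56 in A53T and by 0.44 in vector, with no difference passing between them (interaction -0.11, adjusted p = 0.259).

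Genes that handle calcium fell in 14 of 18 cases and rose in 2, in vector 13 fell, and 6 were lower with the covariate. The ryanodine receptor gene Ryr2 had 413, 524 and 501 at 2.0 µM, 2822, 2810 and 2857 at 0.2 µM and 834 and 895 in DMSO (-2.57 ± 0.17). The plasma membrane calcium pump genes Atp2b2 and Atp2b3 fell by 1.37 and 2.08, and the sodium-calcium exchanger gene Slc8a1 by 2.73. These 4 genes fell in vector as well, by 0.43 to 0.68, and all 4 passed with the covariate. Of 26 axon guidance genes 24 fell and none rose, and 6 passed as lower with the covariate. Dcc, the netrin receptor, had 11.9, 14 and 12.8 against 516, 500 and 509. Ncam1, a neural adhesion molecule, and the 2 enzymes that add polysialic acid to it, St8sia2 and St8sia4, all fell, and none of the 3 passed with the covariate.

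The neuron markers did not move as a group. Of 19 pan-neuronal markers 7 rose and 10 fell, beside 38.7% and 38.5% of all genes, with a median of -0.30. Their summed level was 115605 to 138851 at 2.0 µM and 109636 to 110317 at 0.2 µM. Map2, the dendritic microtubule protein, gave the extreme value. It had 71.8, 212 and 423 at 2.0 µM and 18720, 17885 and 18734 at 0.2 µM (-6.62 ± 0.89), against 741 and 1011 in DMSO and 223 to 1484 in the vector libraries. Tubb3, the neuronal tubulin, went the other way, with 9166, 9500 and 9606 at 2.0 µM and 6539, 6630 and 6666 at 0.2 µM (0.51 ± 0.06). Stmn3 and Uchl1 rose by 1.58 and 1.53. Rbfox3, the gene of the neuronal nuclear antigen NeuN, fell by 1.72, and the doublecortin gene Dcx of young neurons by 1.38. With the covariate 2 markers were higher and 3 lower. Map2 was then at -0.31 and did not pass, Dcx stayed at -1.36 and Tubb3 at 0.54.

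Of 16 glutamatergic markers 12 fell and 3 rose, and 1 was lower with the covariate. Slc17a7, the vesicular glutamate transporter, had 2234, 3484 and 3671 at 2.0 µM and 6822, 7061 and 6943 at 0.2 µM, with 6672 and 7154 in DMSO. It fell in vector as well (-0.62). The GABAergic list had 9 lower and 4 higher of 17, beside 38.5% and 38.7% of all genes, with 3 lower in the covariate fit. Gad1, which makes GABA, fell by 0.62 in A53T and by 0.75 in vector, with no difference passing between them (interaction 0.13, adjusted p = 0.429), while its partner Gad2 fell by 3.73 and 0.81.

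Genes of secreted peptides were counted in both genotypes. Of 21 genes of neuropeptides and trophic factors, 9 rose and 5 fell in A53T, while 1 rose and 13 fell in vector. With the covariate 1 was higher and 1 lower in A53T, and under quantile normalization 12 rose and 3 fell there. Cck, the cholecystokinin gene, had 10371, 7721 and 6228 at 2.0 µM and 1905, 2150 and 2149 at 0.2 µM, with 8402 and 8030 in DMSO. The A53T libraries at 0.2 µM were again the ones outside, since the 9 vector libraries had 6875 to 13406, and Cck did not pass with the covariate (0.18, adjusted p = 0.448). Nptx1, a synaptic pentraxin, fell by 1.16 in A53T and 0.60 in vector. Activity-dependent early genes were split, with 8 higher and 11 lower of 23, beside 38.7% and 38.5% of all genes. With the covariate 1 of them was lower. Egr3 had 24.6, 83 and 75.3 against 644, 663 and 749, and Jund rose by 1.23 in A53T and 0.86 in vector.

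Most measured genes for ribosomal proteins, respiration, the proteasome, glycolysis and lysosomes were higher at 2.0 µM. All 23 measured cytosolic ribosomal protein genes rose, between 1.48 and 2.09 log2 units, with a median of 1.82. Rpl3 had 38224, 28856 and 27914 at 2.0 µM and 10636, 10807 and 10795 at 0.2 µM (1.54 ± 0.18). Its A53T libraries in DMSO had 24836 and 23219 and its vector libraries 17853 to 25869. In vector 12 of the 23 rose, with a median of 0.47. With the covariate 3 of the 23 passed as higher, and the median was 0.32. Of 13 general housekeeping genes 9 rose and 2 fell, between -1.20 and 2.13, and 5 were higher with the covariate. Ribosomal protein genes, Gapdh and Ppia have many processed copies in mammalian genomes, and their counting rule for shared reads is not stated, so these values are uncertain.

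Of 23 genes for oxidative phosphorylation subunits 22 rose and 1 fell, with a median of 1.58, against 0.01 in vector, where none rose. With the covariate 5 passed as higher and none as lower. Ndufa4, a subunit of the respiratory chain, had 16566, 12629 and 11325 at 2.0 µM, 3725, 3725 and 3624 at 0.2 µM, and 10570 and 9928 in DMSO. Of 27 proteasome subunit genes 24 rose and 1 fell, but none passed with the covariate, where the median was 0.22, against 1.27 without it. The glycolysis list had 15 higher and 3 lower of 19. Gapdh had 75641, 62155 and 58225 at 2.0 µM and 28127, 28415 and 28437 at 0.2 µM, while DMSO libraries had 69181 and 67004 and vector libraries 50095 to 87962. Pkm, the pyruvate kinase gene, rose by 0.55, and was at 0.49 with the covariate, where 4 genes of the list passed. For lysosome and autophagy, 20 of 26 genes rose and 4 fell, and with the covariate 2 were higher and 1 lower. Ctsb, the protease cathepsin B, had 28382, 24209 and 26017 at 2.0 µM, 15713, 15627 and 15630 at 0.2 µM, and 23219 and 22354 in DMSO (0.74 ± 0.10), and in vector it rose by 0.30.

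**Figure D4:**
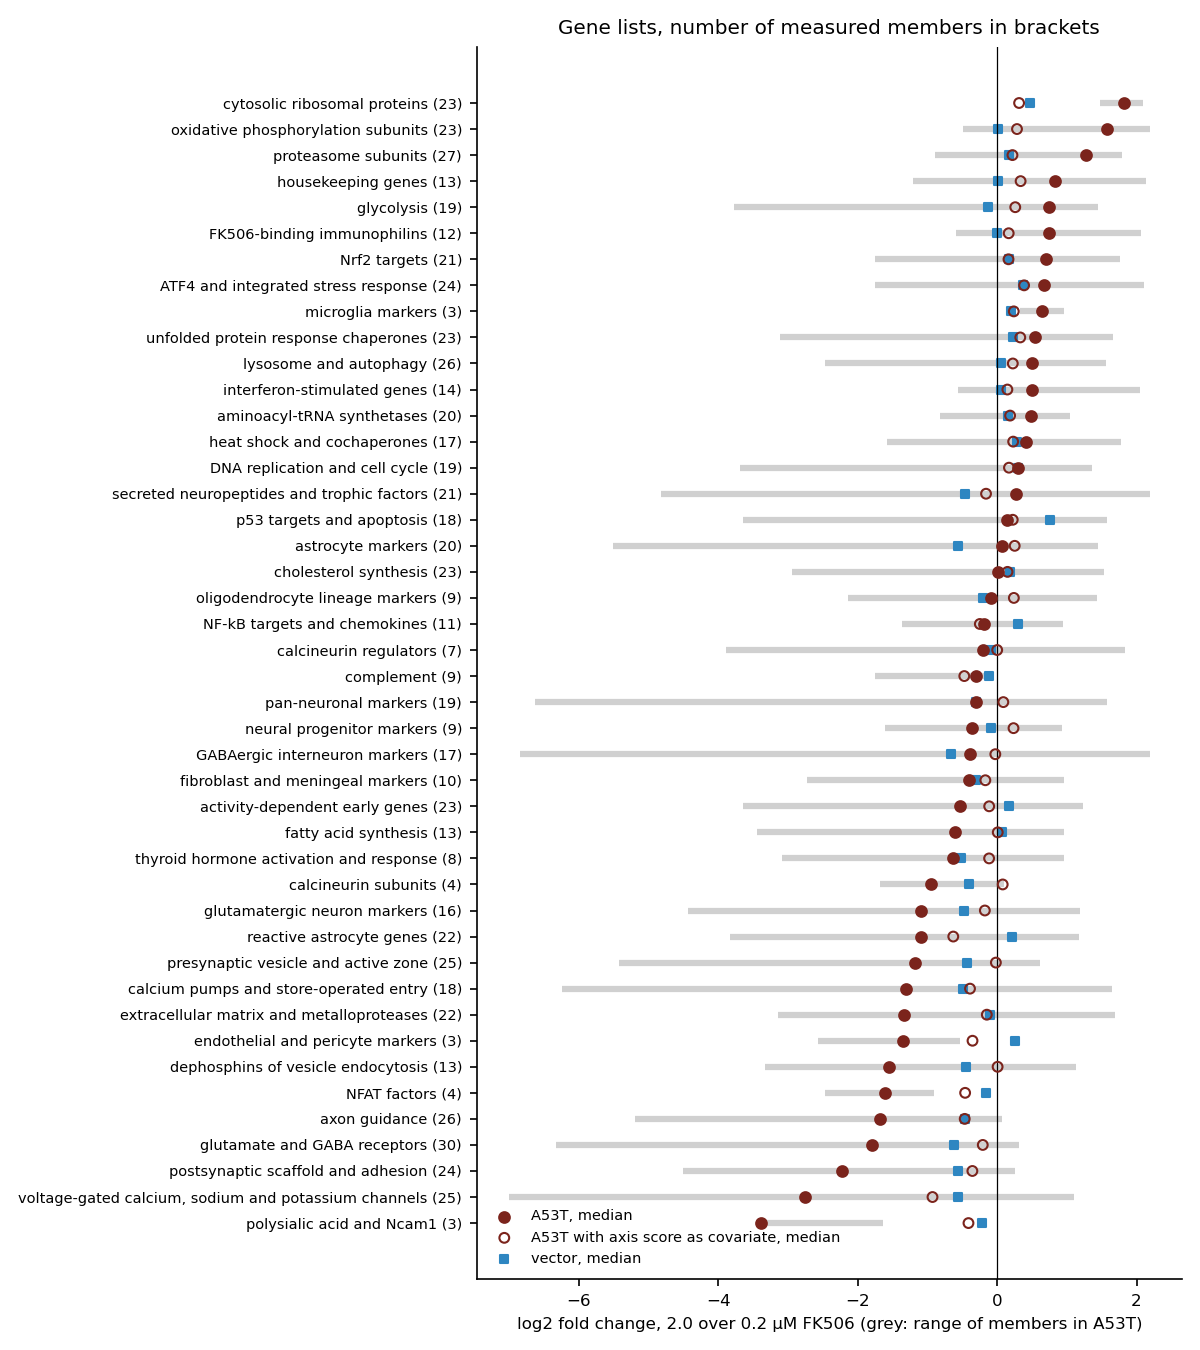
Median log2 fold change of 2.0 over 0.2 µM FK506 for each gene list with at least 3 measured members: A53T (filled circles), A53T with the axis score as a covariate (open circles) and vector (blue squares), with the range of members in A53T in grey. Ribosomal, respiratory and proteasome lists lie highest and channel, postsynaptic and receptor lists near the bottom, and 38 of the 44 A53T medians lie closer to 0 with the covariate.

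Chaperone genes of the endoplasmic reticulum were higher at 2.0 µM in both genotypes. Of 23 measured genes of the unfolded protein response, 17 rose and 3 fell in A53T (median 0.55), and 14 rose and none fell in vector (median 0.23). With the covariate 6 passed as higher and 1 lower. The promoters of 3 genes are shown because these genes, chosen after their values were seen, passed in A53T, in vector and with the covariate, and hold the endoplasmic reticulum stress response element. Capitals mark the element, CCAAT and CCACG with 9 bases of any kind between them, searched on both strands. Each run is the 250 bases before the transcript start, 5′ to 3′ on the gene's strand, from RefSeq on GRCr8, a later build than the rn6 of the deposited values.
Hspa5, chr3:38452766-38453015, plus strand: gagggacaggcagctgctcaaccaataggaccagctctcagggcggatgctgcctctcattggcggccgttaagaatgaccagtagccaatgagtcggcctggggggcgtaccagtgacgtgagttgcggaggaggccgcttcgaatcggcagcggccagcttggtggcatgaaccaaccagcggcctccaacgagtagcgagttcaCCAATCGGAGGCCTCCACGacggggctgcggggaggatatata
Hsp90b1, chr7:23012294-23012543, minus strand: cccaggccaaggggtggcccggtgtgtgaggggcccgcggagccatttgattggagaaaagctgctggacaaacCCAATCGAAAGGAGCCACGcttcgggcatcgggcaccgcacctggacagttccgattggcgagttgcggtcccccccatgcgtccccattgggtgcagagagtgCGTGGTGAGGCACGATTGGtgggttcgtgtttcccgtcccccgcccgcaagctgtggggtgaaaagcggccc
Calr, chr19:40213117-40213366, plus strand: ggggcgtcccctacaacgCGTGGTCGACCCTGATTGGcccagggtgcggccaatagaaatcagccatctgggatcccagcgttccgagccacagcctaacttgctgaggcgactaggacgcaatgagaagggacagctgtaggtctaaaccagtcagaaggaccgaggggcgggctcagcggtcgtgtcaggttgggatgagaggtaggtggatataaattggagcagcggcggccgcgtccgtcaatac
The Hsp90b1 promoter holds 2 matches, 1 on each strand, and the others 1 each. Among 27457 genes with a RefSeq promoter, 21 hold the element, which is 0.0765%. Of the 23 measured chaperone genes 19 had a promoter there and 8 of these held it, and of those 8 genes 6 rose and 1 fell, beside 7 higher and 2 lower of the 11 without it. A match is a string of letters and not a measured site.

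Hspa5, which encodes the chaperone BiP, had 51597, 45588 and 55360 at 2.0 µM and 30768, 29626 and 30433 at 0.2 µM (0.74 ± 0.10, adjusted p = 3.74e-05). Its A53T libraries in DMSO had 28283 and 29523, level with 0.2 µM. In vector it had 45666, 44234 and 46281 at 2.0 µM and 27374, 24206 and 27104 at 0.2 µM, a fold change of 0.79. The interaction did not pass (-0.05, adjusted p = 0.740), and with the covariate Hspa5 was at 0.72. Calr, the calcium-binding chaperone calreticulin, had 27318, 23902 and 25029 at 2.0 µM and 13361, 12858 and 13065 at 0.2 µM (0.95 in A53T, 0.53 in vector). Hsp90b1, the chaperone GRP94, rose by 0.55 in A53T and 0.18 in vector. Manf, a secreted protein that protects neurons in rodents, had 1270, 1110 and 1242 against 540, 557 and 543 (1.14 ± 0.10), and rose by 0.58 in vector and by 0.75 with the covariate. Sel1l, of the pathway that clears misfolded proteins from the endoplasmic reticulum, fell by 3.12.

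In the integrated stress response 17 of 24 genes rose and 4 fell, beside 14 and 4 in vector, and with the covariate 1 was higher and 1 lower. Its factor Atf4 had 25992, 19896 and 22087 at 2.0 µM and 10334, 10298 and 10297 at 0.2 µM (1.13 ± 0.14), with 14207 and 15168 in DMSO. Ddit3, which encodes CHOP, a transcription factor of prolonged stress, had 20963, 13571 and 13438 at 2.0 µM, 3711, 3507 and 3675 at 0.2 µM, and 5731 and 6162 in DMSO (2.11 ± 0.24). In vector it rose by 0.70, to 9677 to 12102 at 2.0 µM, against 5641 to 7993 at 0.2 µM. Neither passed with the covariate (adjusted p = 0.147 for Atf4 and 0.0726 for Ddit3). Slc7a11, the cystine transporter, fell instead, with 139, 170 and 163 against 517, 517 and 553, and passed with the covariate (-1.84). Of 20 aminoacyl-tRNA synthetase genes, many of them ATF4 targets, 15 rose and 2 fell. Hars rose by 0.57 and was the 1 that passed with the covariate.

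Of 18 genes of the p53 response 6 rose and 4 fell in A53T, while 12 rose and none fell in vector. With the covariate 1 was higher and 1 lower, and in a fit of the 2 compared groups alone 5 rose and 2 fell. Cdkn1a, the cell cycle inhibitor p21, had 3757, 2826 and 3806 at 2.0 µM, 1126, 1174 and 1184 at 0.2 µM, and 858 and 926 in DMSO (1.56 ± 0.18). The vector libraries had 9105, 11118 and 8096 at 2.0 µM and 1045, 938 and 871 at 0.2 µM (3.30), and the difference was smaller in A53T by the interaction test (-1.74, adjusted p = 7.86e-05). Bbc3, the death activator PUMA, had 2034, 1583 and 1714 at 2.0 µM and 644, 719 and 722 at 0.2 µM. Zmat3 and Tp53inp1, further p53 targets, fell in A53T (-0.77 and -3.65) and rose in vector (0.42 and 1.26). The heat shock list had 10 of 17 genes higher and 3 lower, against 13 higher and none lower in vector. It had 11 higher and 5 lower under quantile normalization, and 1 higher with the covariate. Among Nrf2 targets 15 of 21 rose and 3 fell, and with the covariate 3 were higher and 1 lower. Gstp1, a glutathione transferase, had 19526, 13922 and 13095 against 4548, 4498 and 4456, and Tkt of the pentose phosphate pathway rose by 1.09 and by 0.52 with the covariate.

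Cholesterol synthesis had 9 genes higher and 10 lower of 23, beside 38.7% higher and 38.5% lower over all genes. With the covariate 2 were lower. Lss, the lanosterol synthase gene, had 151, 153 and 156 at 2.0 µM and 466, 483 and 488 at 0.2 µM, against 208 and 205 in DMSO. Hsd17b7 fell in A53T (-2.14) and rose in vector (0.45), and Mvd rose in both (1.54 and 0.72). Of 13 genes of fatty acid synthesis 8 fell and 2 rose, and 1 was lower with the covariate. Fasn, the fatty acid synthase, had 1287, 1381 and 1465 at 2.0 µM and 2845, 2890 and 2716 at 0.2 µM, with 1531 and 1530 in DMSO and 1639 to 2106 in vector.

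Gfap, the astrocyte filament that marks reactivity, had 7320, 6555 and 6176 at 2.0 µM and 15438, 15764 and 15830 at 0.2 µM (-1.23 ± 0.12, adjusted p = 4.23e-06), and 36398 and 34947 in DMSO. Vector libraries had 12955, 14585 and 12389 at 2.0 µM, 21672, 18576 and 21571 at 0.2 µM, and 44127 to 45477 in DMSO. The groups did not overlap at any step, and with the covariate the A53T difference was -1.84. Of 22 reactive astrocyte genes 14 fell and 3 rose in A53T, while 3 fell and 8 rose in vector, and 8 passed as lower with the covariate. Cp, the ceruloplasmin gene, had 362, 395 and 493 at 2.0 µM, 1642, 1617 and 1628 at 0.2 µM, and 2498 and 2348 in DMSO. Thbs4, a thrombospondin, had 8.06, 11 and 11.7 against 58.7, 61 and 40.4. Of 9 complement genes 6 fell and none rose, but under quantile normalization 2 fell and 1 rose, and only 1 fell with the covariate or in a fit of the 2 compared groups alone. C3 had 33.3, 32 and 32.9 at 2.0 µM and 66.2, 64.7 and 68.2 at 0.2 µM, but rose in vector, to 44 to 59.7 at 2.0 µM, against 30.8 to 32.9 at 0.2 µM.

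The 20 general astrocyte markers were evenly split in A53T, with 7 higher and 7 lower, but 2 rose and 13 fell in vector. With the covariate 5 were higher and 3 lower. Aqp4, the water channel of astrocyte endfeet, had 1085, 1682 and 1758 against 6563, 6322 and 6438 (-2.13), and fell in vector (-0.92). Slc1a2, the main glutamate transporter of astrocytes, had 206, 152 and 195 at 2.0 µM, 2230, 2178 and 2278 at 0.2 µM, and 112 and 126 in DMSO. It rose in vector, to 251 to 273 at 2.0 µM, against 145 to 160 at 0.2 µM. Aldoc and Acsbg1, astrocyte enzymes of glycolysis and of lipid activation, went opposite to Slc1a2. Acsbg1 had 4598, 4559 and 4547 at 2.0 µM and 2600, 2660 and 2588 at 0.2 µM, while in vector it had 2232, 2163 and 2219 at 2.0 µM and 3777, 3985 and 3505 at 0.2 µM. The covariate left Acsbg1 at 0.82 and Aldoc at 0.75.

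The oligodendrocyte lineage gene Olig1 showed the same crossing. It had 3166, 3133 and 2937 at 2.0 µM, 1129, 1149 and 1149 at 0.2 µM, and 2104 and 2115 in DMSO (1.43 ± 0.09, adjusted p = 4.20e-07). In vector it had 860, 964 and 864 at 2.0 µM and 1992, 1824 and 1690 at 0.2 µM (-1.03). The interaction was 2.46 (adjusted p = 1.72e-07), and with the covariate the A53T difference was 0.97. Olig2, its neighbour in the family, had 676, 678 and 794 against 741, 766 and 763 and did not pass in A53T. In vector Olig2 fell by 0.86, and its interaction (0.77) passed in the direction of that of Olig1. Of the 9 measured lineage markers 2 rose and 3 fell, beside 38.7% and 38.5% of all genes. The markers had a median of -0.08, and 1 was higher with the covariate. Their summed level was 5043 to 5103 at 2.0 µM and 3220 to 3334 at 0.2 µM, but without Olig1 it was 1937 to 2106 and 2090 to 2184. Mbp, the myelin basic protein gene, and Pdgfra, the receptor that marks precursors, fell by 1.93 and 2.14.

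Markers of other cell types were few and mostly low. Of 16 listed microglia markers 3 were measured, and 2 of them rose. Cd68, a lysosomal protein of phagocytes, had 754, 646 and 696 against 351, 366 and 357, while Laptm5 had 3 to 4 against 0.724 to 4.5. Lum, a meningeal fibroblast gene, had 2.84, 6 and 4.3 at 2.0 µM and 7.21, 4.46 and 5.91 at 0.2 µM. In vector Lum had 3.87 to 5.07 at 2.0 µM and 18.9 to 28.9 at 0.2 µM, a log2 fold change of -2.06. The fibroblast markers summed to 1568 to 1937 at 2.0 µM and 2130 to 2236 at 0.2 µM, and the endothelial and pericyte markers to 81 to 94 and 217 to 227. With the covariate 1 fibroblast marker was lower, and no microglia, endothelial or pericyte marker passed. The part of these cells in the results was not tested. Of 9 neural progenitor markers 3 rose and 4 fell, beside 38.7% and 38.5% of all genes. Without replicate 1 at 2.0 µM 3 of them rose and 2 fell, and 2 were lower with the covariate. The medians of the progenitor, fibroblast and oligodendrocyte lists changed sign under quantile normalization.

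Other immune and growth genes moved less evenly. Among 14 interferon-stimulated genes 6 rose and 2 fell, or 3 and 0 in a fit of the 2 compared groups alone, and 1 was lower with the covariate. Psmb8, an immunoproteasome subunit, had 450, 252 and 312 at 2.0 µM and 86.2, 85.4 and 65.2 at 0.2 µM, and rose in vector as well (2.04 and 1.28). Of 11 NF-kB targets 3 rose and 3 fell, beside 38.7% and 38.5% of all genes. Their median changed sign under quantile normalization, none was higher in a fit of the 2 compared groups alone, and 1 was lower with the covariate. Of 22 genes of the extracellular matrix 13 fell and 4 rose, and with the covariate 2 were lower and 1 higher. Fn1, the fibronectin gene, had 189, 180 and 232 against 765, 791 and 781, while the perineuronal proteoglycan gene Bcan rose by 0.81 in A53T and fell by 0.29 in vector. Of 19 cell cycle genes 8 rose and 5 fell, without replicate 1 at 2.0 µM 7 rose and 3 fell, in a fit of the 2 compared groups alone 5 rose and 3 fell, and with the covariate 1 was higher and 1 lower. Pcna, the sliding clamp of DNA replication, rose by 0.82 in A53T, by 0.51 in vector and by 0.63 with the covariate. Of 8 genes of thyroid hormone action 2 rose and 4 fell, and 1 was higher with the covariate. Thra, the main thyroid hormone receptor of brain, rose by 0.54, and Slco1c1, a thyroid hormone transporter, rose in A53T (0.96) and fell in vector (-1.22).

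The dose difference in A53T was tested against that in vector for every gene. The interaction passed for 7651 genes (68.0%), 3834 higher in A53T (34.1%) and 3817 lower (33.9%). Both dose comparisons passed for 2887 genes, of which 1275 were higher and 999 lower in both, 320 higher in A53T and lower in vector, and 293 the reverse. The lowest interaction was that of Slc5a3, a myo-inositol transporter that osmotic stress induces. It had 4.22, 3 and 3.26 at 2.0 µM and 265, 255 and 259 at 0.2 µM in A53T, but 15.6, 17.1 and 19.2 at 2.0 µM and 7.93, 5.7 and 6.74 at 0.2 µM in vector (-7.10). Zbtb20, a transcription factor of hippocampal development, had 14.4, 18 and 18.1 against 288, 347 and 292 in A53T, and 84.8, 71.1 and 107 against 13.9, 19.1 and 17.1 in vector. Timp4, a metalloprotease inhibitor, went the other way, with 427, 421 and 364 against 112, 131 and 128 in A53T and 65.3, 94.8 and 80 against 191, 186 and 165 in vector (2.87). With the axis score as a covariate the interaction passed as higher for 811 genes and as lower for 1034.

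**Figure D5:**
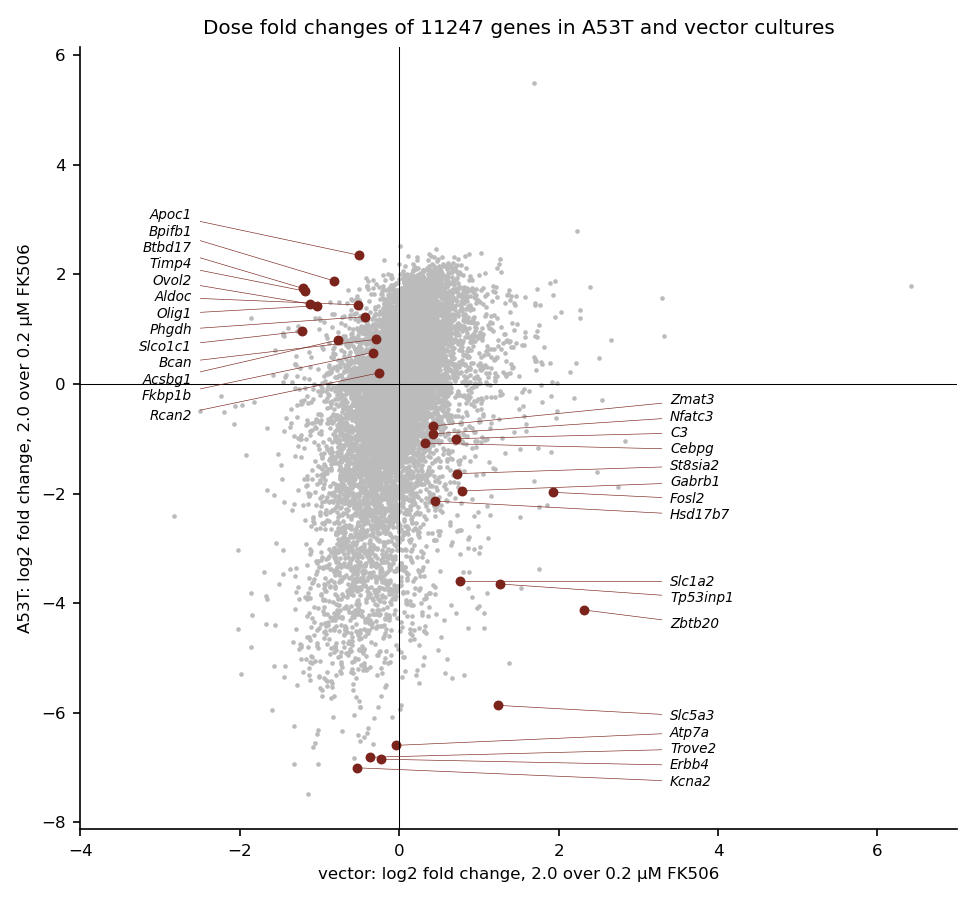
Log2 fold change of 2.0 over 0.2 µM FK506 in A53T (vertical) and vector (horizontal) cultures for 11247 genes, with 29 named genes in dark red that had the largest interactions or passed in opposite directions. Slc5a3, Zbtb20 and Tp53inp1 lie at the lower right and Olig1, Timp4 and Btbd17 at the upper left; the top point is Ttr.

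Lrrc58 had the largest fall, with 1.65, 7 and 18.1 at 2.0 µM and 1364, 1317 and 1268 at 0.2 µM (-7.48 ± 1.16), but was at 0.57 with the covariate. Erbb4, the neuregulin receptor of interneurons, had 4.22, 9.01 and 5.38 against 825, 807 and 764 (-6.85). The copper transporter gene Atp7a, the apoptosis inhibitor gene Xiap and the kinase gene Wnk3 fell by 6.55 to 6.60. Apart from Ttr, the largest rise was that of Tnnc2, a troponin of fast skeletal muscle. It had 329, 185 and 218 at 2.0 µM, 32.3, 41.7 and 26.5 at 0.2 µM, and 53.6 and 55.4 in DMSO (2.79 ± 0.33). It rose in vector alike, with 364, 470 and 358 against 116, 65.2 and 76.2, and the interaction did not pass (0.56, adjusted p = 0.231). Mt3, the brain metallothionein, had 42570, 24731 and 23082 against 5226, 5184 and 5243. Apoc1, an apolipoprotein of glia, had 102, 82 and 74.1 against 13.6, 15.3 and 18.7 in A53T, where it rose by 2.35, and in vector its fold change was -0.51 and did not pass. The brain cytoplasmic RNA Bc1, made in neurons, had 16064, 6599 and 8925 at 2.0 µM and 1854, 2000 and 2065 at 0.2 µM.

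For most genes the 0.2 µM libraries did not lie between DMSO and 2.0 µM. They were above both other A53T groups with no overlap for 4367 genes (38.8%) and below both for 4289 (38.1%). As the libraries at 0.2 µM agree nearly within counting noise, they clear other groups more easily than libraries with spread. Values rose from DMSO through 0.2 µM to 2.0 µM without overlap for 193 genes (1.72%) and fell for 235 (2.09%) in A53T, and for 727 (6.46%) and 897 (7.98%) in vector. In both genotypes 88 genes rose and 126 fell by steps. The genes named next were chosen after their values were seen, as those with the largest change in both genotypes. Nptx2, a pentraxin that neuronal activity induces, had 1070 and 1245 in DMSO, 393, 355 and 373 at 0.2 µM and 134, 172 and 102 at 2.0 µM in A53T. In vector it had 1719 to 1876 in DMSO, 486 to 594 at 0.2 µM and 153 to 243 at 2.0 µM. Acan, the proteoglycan of perineuronal nets, had 109 and 145 in DMSO, 76.6, 63.6 and 80 at 0.2 µM and 13.2, 22 and 18.1 at 2.0 µM in A53T. Fam107a, an actin-binding protein of astrocytes and neurons, had 466 and 462 in DMSO, 132 to 149 at 0.2 µM and 61 to 61.6 at 2.0 µM in A53T. Rgs2, an inhibitor of G-protein signalling, Maob, an amine oxidase of astrocytes, and the genes Gfap, Cp and Thbs4 described above also fell by steps in both genotypes.

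Among the stepwise rises were Cdkn1a, with the values above, and Gtse1, a regulator of p53 and the cell cycle. Gtse1 had 93.6 to 102 in DMSO, 206 to 214 at 0.2 µM and 246 to 343 at 2.0 µM in A53T, and 31.6 to 48.9, 83.3 to 101 and 456 to 600 at the same doses in vector. Chrne, a subunit of the muscle acetylcholine receptor, had 237 to 252 in DMSO, 338 to 357 at 0.2 µM and 634 to 792 at 2.0 µM in A53T. In vector it had 108 to 129, 273 to 368 and 833 to 985. Gad1 of the interneuron markers fell by steps in both genotypes too, with 3776 and 3684 in DMSO, 3503 to 3646 at 0.2 µM and 2155 to 2532 at 2.0 µM in A53T.

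With the axis score as a covariate, 165 of the genes that rose without it were still higher (3.79%) and 632 of those that fell were still lower (14.6%), while 38 passed in the opposite direction. In vector, 67 of the 165 also rose and 212 of the 632 also fell. The same counts were 1275 of the 4358 genes that rose without the covariate and 999 of the 4334 that fell. Over all 11247 genes, 2021 rose and 1764 fell in vector. Whether the kept genes overlapped with vector more than these was not tested. The named genes that passed with the covariate in the same direction, whatever they did in vector, included Gfap, Bsn, Homer1, Nfat5, Atp2b3 and Dlgap1 on the lower side and Calr, Manf, Olig1, Acsbg1, Pcna and Tkt on the higher side.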

How the data were processed

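RNA was extracted from rat cortical cultures and sequenced as stranded mRNA libraries, per the labels' protocols. The submitters' processing notes name FastQC, TopHat, HTSeq and the build rn6, with no versions. The deposited table holds the authors' normalized counts, a signal value per gene and library. Their normalization method is not stated. Whole reads could not be recovered in every library. Low values lay at multiples of a fixed step in some libraries (fit 1.0 for A53T at 2.0 µM, replicate 2). The steps were less clear in others (0.673 for A53T at 2.0 µM, replicate 1). Depth is therefore not known for every library, and no count model was run. Of 17 columns 1, named for A53T in DMSO, has a number that no title has, and was used as an unnumbered replicate of that group.

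Values were tested as log2(value + 1), for genes with a mean of at least 1, with limma 3.58.1 (trend) in R 4.3.3. The 3 A53T libraries at 0.2 µM, which agree within sampling noise for most genes where the values are read as counts, entered as their mean. Each of 6 groups had a mean, over 15 samples, with Benjamini-Hochberg adjustment over 11247 genes at 0.05. The interaction is the A53T dose difference minus the vector one. This scale understates changes of low genes.

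Members and lists were chosen with earlier results of these data known. Named genes are members of the lists on calcineurin and synuclein, the 12 largest rises and falls without overlap, up to 5 of each list by smallest p, the 6 largest interactions each way and defining cell type markers. A few genes under this rule are not reported here. Names were matched to RefSeq: 11093 of 11247 labels. Alternatives were pseudocounts of 0.25 and 4, filters, other normalizations, other sets of libraries, a replicate block and an axis covariate.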

Additional observations from a re-analysis of the deposited data

Results flagged for a closer look

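The difference between the doses was itself different in A53T and vector cultures for many of the named genes, and 29 of them are set apart here. They are those with the largest interactions in each direction and those that passed in opposite directions in the genotypes. The values are interactions on the log2 scale, the A53T difference of 2.0 over 0.2 µM minus the vector difference, from limma. Of the 243 named genes 210 passed this test, beside 68.0% of all genes. Many were chosen by the A53T dose difference, which is part of the interaction, and some by the interaction itself. Of the 243, 22 passed as higher in one genotype and lower in the other. Over all 11247 genes 320 were higher in A53T and lower in vector, and 293 the reverse. The 16 genes with a more negative difference in A53T were Slc5a3 (-7.10), Erbb4 (-6.62), Atp7a (-6.56), Kcna2 (-6.48), Trove2 (-6.45), Zbtb20 (-6.44), Tp53inp1 (-4.92), Slc1a2 (-4.37), Fosl2 (-3.91), Gabrb1 (-2.73), Hsd17b7 (-2.59), St8sia2 (-2.36), C3 (-1.70), Cebpg (-1.40), Nfatc3 (-1.33) and Zmat3 (-1.19). The 13 with a more positive difference were Rcan2 (0.45), Fkbp1b (0.91), Bcan (1.11), Acsbg1 (1.57), Phgdh (1.65), Aldoc (1.96), Slco1c1 (2.18), Olig1 (2.46), Ovol2 (2.58), Bpifb1 (2.71), Apoc1 (2.86), Timp4 (2.87) and Btbd17 (2.96). For each of them the A53T libraries at 0.2 µM enter as 1 sample, and their dose and their position on the leading axis cannot be told apart. Ovol2 and Bpifb1 passed the dose test in neither genotype. Ovol2 had 1.40, 2.62 and 0.692 at 0.2 µM in A53T, and Bpifb1 had 4.85, 2.41 and 3.05 at 2.0 µM in vector.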

How the results depend on the processing

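The counts of genes that rose and fell at 2.0 µM were 4358 and 4334 as reported. With the axis score as a covariate they were 238 and 663, and those of the interaction 811 and 1034, against 3834 and 3817; that fit extrapolates beyond the scores it learned from. Under the other settings tried both counts of the dose comparison and of the interaction stayed within 1.5 times. Leaving out 1 library at a time gave 4284 to 4370 higher and 4203 to 4378 lower, and for the interaction 3606 to 3916 and 3538 to 3932. Leaving out an A53T library at 0.2 µM changed only the mean of that group. Its lone sample stayed in every fit, so these ranges do not show how far the counts rest on it. Titles share replicate numbers. Same-numbered libraries of the compared groups had correlations of -0.03 to -0.02 in their deviations from the group means. Deviations of the A53T libraries at 0.2 µM are mostly of the size of counting noise, so these values cannot show whether libraries were paired. Over all groups 9 of 35 pairs were above 0.1, over a range of -0.51 to 0.67, and among these were all 3 pairs of A53T at 2.0 µM with vector at 0.2 µM (0.22 to 0.67). With the number as a replicate block and all numbered libraries as separate samples the counts were 4777 and 4706, and 4207 and 4229 for the interaction. Quantile normalization moved the median of all genes to 0.25, so changes under it are relative to that shift. The largest noise ratio (of squared differences) between A53T libraries at 0.2 µM was 1.05 over genes with means of 10 to 3000. It was 1.77 from 3000 to 10000 and 3.51 above. Of the 243 named genes, 90 kept direction and side of the threshold with the covariate, 126 no longer passed and 27 changed sign. The log2 values of those 27 were Abcc9 3.41, Acaca 0.069, Camk2a 0.43, Cd55 0.090, Chp1 0.17, Egr3 0.033, Fkbp10 -0.28, Fkbp14 0.65, Fkbp1b -0.10, Gng8 -0.054, Klf9 0.011, Lrrc58 0.57, Lum 0.41, Mgp -0.26, Olig2 0.24, Ovol2 -1.002, Pdgfra 1.04, Ppp3cb 0.46, Rbfox3 0.32, Slc17a7 0.36, St8sia4 0.089, Stat2 0.041, Tbr1 0.63, Tnc 0.70, Traf1 -0.25, Tyms 0.24 and Xiap 1.49. Quantile normalization changed the sign of Fkbp14 0.10, Fkbp9 0.12, Flt1 0.099, Lum 0.46 and Olig2 0.053. Without 1 A53T library at 0.2 µM, Fkbp9 ranged from -0.075 to 0.011 and Laptm5 from -4.1e-05 to 0.81. The cause of these changes was not tested. Depth is not known for every library, so no counting error is given for single low values, and the noise ratios treat the normalized values as counts.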

Other observations

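Gdf15, a stress-induced cytokine chosen after its values were seen, had 244, 189 and 275 at 2.0 µM and 73.1, 60.8 and 66.9 at 0.2 µM in A53T. In vector it had 3927, 4761 and 3743 at 2.0 µM and 49.6, 42.2 and 50.1 at 0.2 µM. Its log2 fold change was 1.79 in A53T and 6.42 in vector, and the interaction was -4.63 (limma, adjusted p = 1.79e-06).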
